A study of Arabidopsis thaliana with 4 samples.

Results

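Photosynthesis in Arabidopsis thaliana depends on proteins encoded in the nucleus, and the transcripts of 43 such genes were examined here: 21 encode the light-harvesting antenna, 10 encode subunits of photosystem II and 12 encode subunits of photosystem I. They were the rows of the deposited gene count table, which lists 32833 genes, whose identifiers are those of the LHCA, LHCB, PSB and PSA genes chosen for this description. Polyadenylated RNA came from whole seedlings grown for 7 days on 1/2 MS medium with 1% sucrose and given no treatment. The control group was wild type of the accession Col-0, with 2 libraries numbered 1 and 2 by their titles (2 and 3 in the count table). The other group carried MAC3B Q77A/D81A-GFP, with 2 libraries numbered 1 and 3, and is called the mutant below. MAC3B is a Prp19-like member of the spliceosome-linked MOS4-associated complex, and the mutant protein has 2 amino acid changes and is fused to green fluorescent protein. The labels name neither the promoter nor the genetic background of that line, and they list no line with an unmutated MAC3B-GFP. What follows therefore compares Col-0 with a line that differs in the fusion, in the changes and possibly in its background, and these cannot be told apart.

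Light-harvesting chlorophyll a/b-binding proteins (LHC) are membrane proteins of the thylakoid that hold chlorophyll and carotenoids and pass excitation energy to the reaction centres. LHCB proteins serve mainly photosystem II, which splits water, and LHCA proteins serve photosystem I, which reduces ferredoxin. Their genes are among the most strongly transcribed in green seedlings, respond to light and to the circadian clock, and fall when the chloroplast is damaged, while the reaction-centre proteins themselves are made inside the chloroplast.

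Library totals ranged from 23436163 to 30105517 counts, and the 43 genes took 13.4% of all counts in each wild-type library, 10.8% in mutant library 1 and 12.5% in mutant library 3. The label check was the MAC3B transcript (AT2G33340), which stood at 156 and 162 CPM (counts scaled to library size) in Col-0 against 1147 and 947 CPM in the mutant, 6.59-fold higher. Reads of the transgene and of the endogenous gene were counted together. Nothing in the labels tells if the paired libraries are separate cultures, so p-values measure the spread between these samples only, which may be technical. In RNA from whole seedlings, fewer green cells and less RNA of a gene per green cell cannot be told apart. Marker genes of roots and of shoots were both present, as whole seedlings should hold, and 0 of 12 root and 0 of 9 shoot markers tested were called by edgeR. The authors' deposited table gave an adjusted p for only 4 of the root and 6 of the shoot markers, and called 0. At an unadjusted p under 0.05 in edgeR, 1 root marker was lower and 2 were higher, and 0 shoot markers differed. Of all genes tested, 7.17% were lower and 7.54% higher at that limit. The median log2 fold changes (mutant minus wild type) were 0.06 for root and -0.17 for shoot markers.

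The LHCB1 genes encode the most abundant antenna protein and are close copies of one another, which matters for how reads are assigned. LHCB1.1, LHCB1.2 and LHCB1.3 lie side by side on chromosome 1, and LHCB1.4 and LHCB1.5 are neighbours on chromosome 2. The coding regions of the 5 copies were 87.4% to 96.4% identical by pair, and all 5 have no intron in the coding region. The first 60 coding bases are printed here from RefSeq's copy of the TAIR10 genome, with every base that differs from LHCB1.3 in capitals, at chr1:10478071-10478130 on the plus strand for LHCB1.3, chr1:10475833-10475892 on the minus strand for LHCB1.1, chr1:10473187-10473246 on the minus strand for LHCB1.2, chr2:14524818-14524877 on the plus strand for LHCB1.4 and chr2:14523454-14523513 on the minus strand for LHCB1.5.
LHCB1.3: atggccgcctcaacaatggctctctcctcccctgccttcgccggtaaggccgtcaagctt
LHCB1.1: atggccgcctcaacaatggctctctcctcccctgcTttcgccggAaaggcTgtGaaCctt
LHCB1.2: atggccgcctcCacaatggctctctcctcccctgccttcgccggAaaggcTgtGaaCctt
LHCB1.4: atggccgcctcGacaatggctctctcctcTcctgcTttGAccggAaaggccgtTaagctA
LHCB1.5: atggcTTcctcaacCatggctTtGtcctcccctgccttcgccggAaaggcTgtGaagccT
LHCB1.1 and LHCB1.2 differ from LHCB1.3 at 5 of these 60 positions and LHCB1.4 at 8. LHCB1.5 differs at 9 and lacks 3 bases of the LHCB1.3 stretch. Over whole exons, 1.51% to 4.44% of all stretches of 100 bases in a LHCB1 gene occur without a change in another copy. For LHCB2.1 and LHCB2.2 these shares were 9.87% and 12.4%, and no such stretch was shared in the other families of copies compared. The single copies can thus be read apart over most of their length, yet reads may be split between them, and the sum of the copies of LHCB1, LHCB2, LHCB4, PSBO, PSBQ, PSAD, PSAE and PSAH is given as well.

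Across the 42 genes that could be tested, antenna and photosystem transcripts were lower in the mutant by a small amount. The median log2 fold change (mutant minus wild type) was -0.21, and 41 of the 42 values were below 0. Genes were called at an adjusted p under 0.05 in edgeR's quasi-likelihood test with Benjamini-Hochberg adjustment over all 20483 genes tested. By that test 11 transcripts fell and 0 rose, where 1.33% of all genes tested fell and 1.68% rose. At an unadjusted p under 0.05 edgeR gave 29 lower and 0 higher, against 7.17% and 7.54% of all genes tested. DESeq2 called 12 lower and 0 higher, against 1.24% and 1.46% of all genes with an adjusted p. Among the 1857 genes with a mean of at least 100 CPM, which include 38 of the 42 transcripts, 6.03% fell and 3.66% rose. The median over all genes tested was 0.00039, and over the genes of at least 100 CPM it was -0.0088. Both mutant libraries lay below both wild-type libraries for 32 of the 42 transcripts, which was the case for 22.4% of all genes and 33.9% of those of at least 100 CPM. They lay above both for 1 transcript, LHCA6, where all genes gave 22.3%. The remaining 9 had overlapping groups. Scaled by library totals alone, 5 of the 42 fell, 39 values were below 0, and 194 of all genes fell against 507 that rose, where the fit with TMM scaling had 272 and 345.

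The number of calls changed with the library left out. A genotype left with 1 library takes its spread from the pair of the other genotype. These counts therefore do not tell which library carries the difference. Without wild type 1 or without wild type 2, 0 of the 42 were called in edgeR's quasi-likelihood test (12 and 10 had an unadjusted p under 0.05), with medians of -0.21 and -0.20. In the same fits 0.243% and 0.291% of all genes tested fell. Without mutant 1, 15 were called lower and the median was -0.11, and without mutant 3, 36 were called lower and the median was -0.32. Calls rose over all genes too, to 2.34% and 4.61% lower. The authors' deposited table, which came from DESeq2, had 13 of 41 of these genes lower and 0 higher at an adjusted p under 0.05, against 1.86% lower and 2.00% higher over all genes with an adjusted p there. Of the 11 called here, 10 were also among those 13. LHCB1.4 was called only here, and LHCB5, LHCA3 and PSAE2 only in the authors' deposited table.

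**Figure D1:**
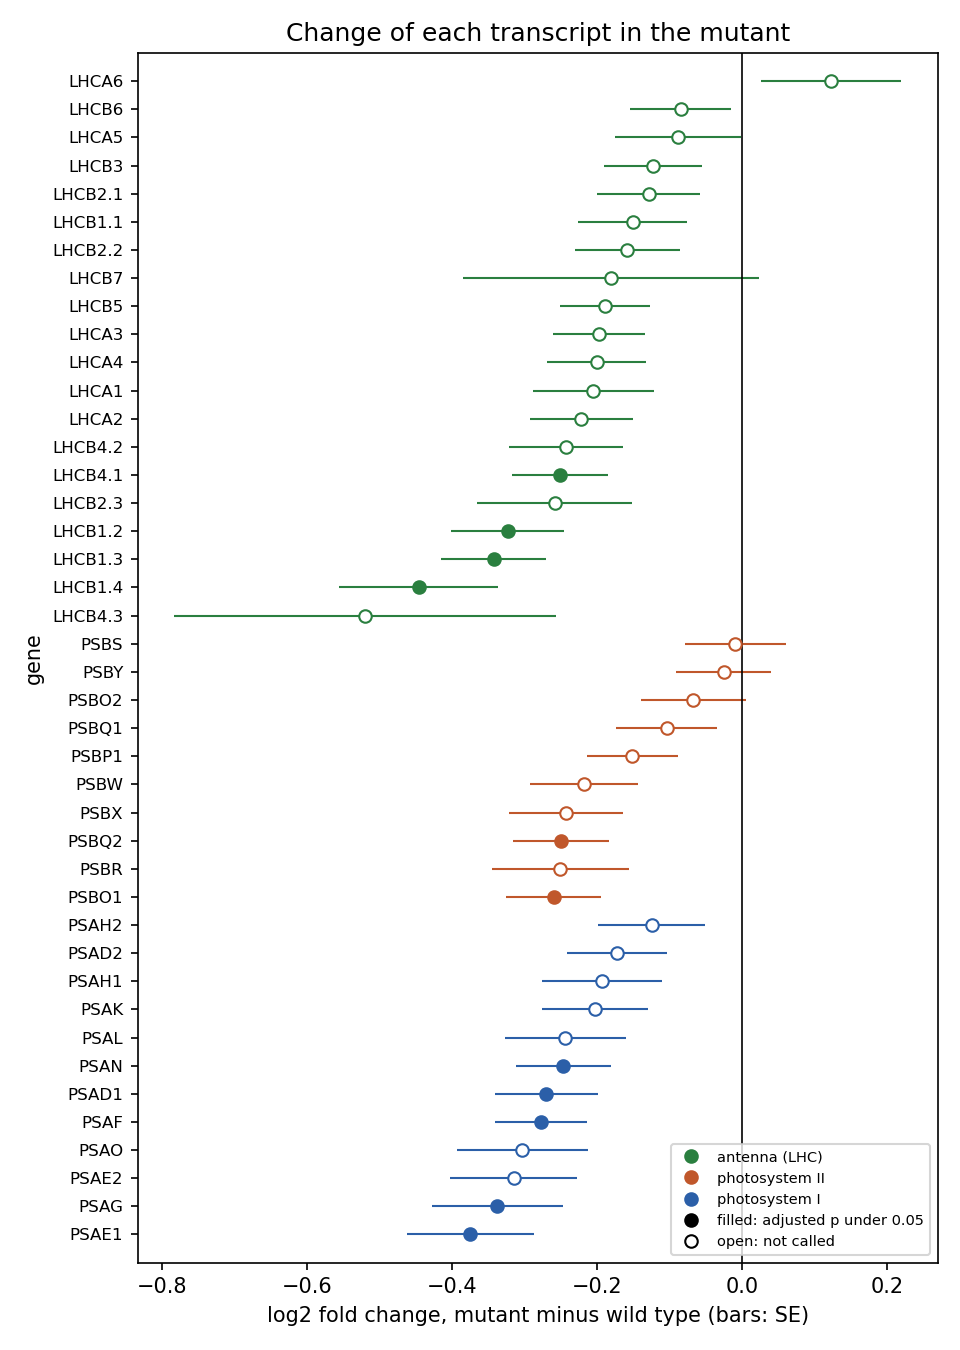
Log2 fold change of each of the 42 tested transcripts, mutant minus wild type, with its standard error (SE) from the edgeR fit on 2 libraries per genotype. Filled points passed an adjusted p of 0.05: 4 antenna (green), 2 photosystem II (orange) and 5 photosystem I (blue) transcripts, all below 0; LHCA6 is the single point above 0.

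Among the antenna genes, 4 of 20 tested fell: LHCB1.2, LHCB1.3 and LHCB1.4, which encode the main LHCII protein, and LHCB4.1, which encodes CP29, a minor antenna protein that links LHCII to the core. LHCB1.3 (AT1G29930, chr1:10477885-10479114) was the most abundant of the 42 tested genes per length. It stood at 21582 and 21200 CPM in Col-0 against 15368 and 18359 CPM in the mutant. Both mutant values were below both wild-type values, and mutant 1 was the lower. The log2 fold change was -0.34 (SE 0.0722, edgeR adjusted p = 0.0103), so that the transcript fell by 21.2%.

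LHCB1.2 (AT1G29910) stood at 7164 and 6813 CPM in Col-0 against 5019 and 6149 CPM in the mutant, which gave -0.32 on the log2 scale (SE 0.0783, edgeR adjusted p = 0.0261). LHCB1.4 (AT2G34430, on chromosome 2) stood at 5569 and 5889 CPM in Col-0 against 3394 and 5016 CPM in the mutant. Its log2 fold change was -0.45 (SE 0.110, edgeR adjusted p = 0.0291), while the authors' deposited table gave it an adjusted p of 0.553. For both genes the groups did not overlap, and for LHCB1.4 mutant 3 lay nearer to wild type than to mutant 1. LHCB1.1 (AT1G29920) was not called: at 6315 and 5957 CPM in Col-0 against 5046 and 6006 CPM in the mutant, its groups overlapped, with a log2 fold change of -0.15 (SE 0.0750, edgeR adjusted p = 0.360).

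LHCB1.5 (AT2G34420) was listed at 0 in every library. All of its exon bases, 100%, are shared with AT2G08665, an annotated gene on the opposite strand that was also listed at 0, and the header names neither a strand option nor an option to count reads in overlapping genes. No statement on its expression can be made from these counts.

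Summed over the 5 copies, with LHCB1.5 at its listed 0, LHCB1 transcripts stood at 40629 and 39860 CPM in Col-0 against 28827 and 35529 CPM in the mutant. Both mutant sums were below both wild-type sums. The log2 fold change was -0.32 (SE 0.0724, edgeR adjusted p = 0.0158). The sum stayed negative in every setting tried, from -0.18 to -0.48 with 1 library left out. Its adjusted p rose to 0.546 without wild type 1 and to 0.399 without wild type 2. Among the copies with counts, LHCB1.3 was the main one in each library. It made up 54.1%, 54.2%, 54.3% and 52.7% of the sum per length in wild type 1, wild type 2, mutant 1 and mutant 3. LHCB1.1 made up 14.8% and 14.2% in Col-0 against 16.7% and 16.1% in the mutant.

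**Figure D2:**
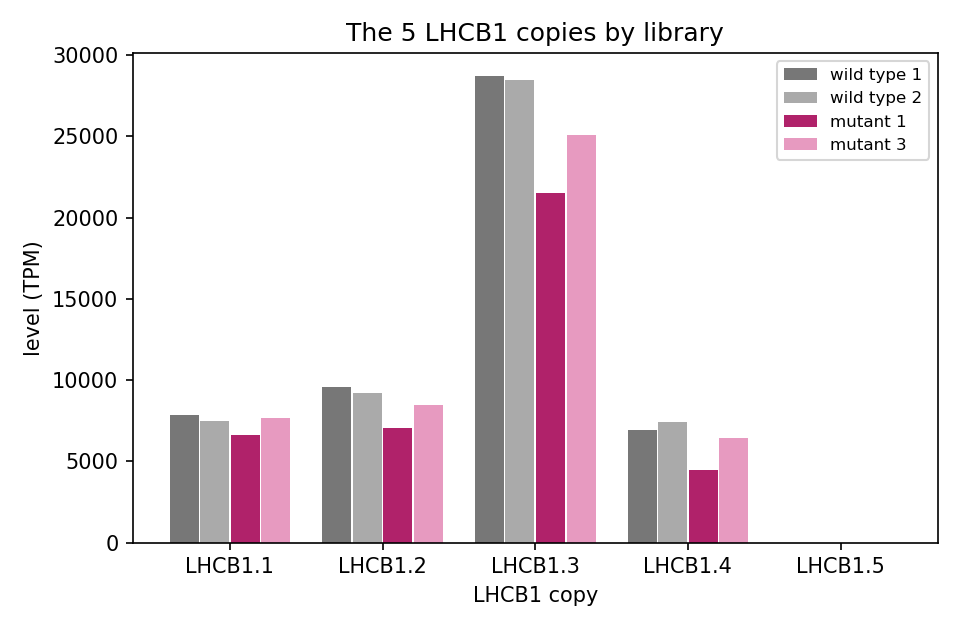
Level of each LHCB1 copy per length, in TPM (counts per exon length, scaled to a fixed library sum), in the 2 wild-type (grey) and 2 mutant (purple, pink) libraries, 1 bar per library. LHCB1.3 is the highest copy in every library, mutant 1 is the lowest library for each copy with counts, and LHCB1.5 is listed at 0.

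The other LHCII genes were not called. LHCB2.1, LHCB2.2 and LHCB2.3, copies of the LHCII protein that is phosphorylated in state transitions, had log2 fold changes of -0.13, -0.16 and -0.26. For LHCB2.3, 40.6% of the exon bases overlap an antisense gene. The LHCB2 sum stood at 8576 and 8805 CPM in Col-0 against 7157 and 8460 CPM in the mutant, with non-overlapping groups and a log2 fold change of -0.15 (SE 0.0720, edgeR adjusted p = 0.320). LHCB3, the third protein of LHCII trimers, had -0.12. Whether LHCB1 fell more than LHCB2 or LHCB3 was not tested.

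The minor antenna proteins CP29, CP26 and CP24 sit between the LHCII trimers and the photosystem II core. LHCB4.1 (AT5G01530) stood at 4127 and 4179 CPM in Col-0 against 3334 and 3645 CPM in the mutant, with a log2 fold change of -0.25 (SE 0.0664, edgeR adjusted p = 0.0435). Its groups did not overlap. LHCB5 (AT4G10340), which encodes CP26 and was the highest minor antenna gene per length, stood at 6122 and 6209 CPM in Col-0 against 5344 and 5471 CPM in the mutant. Both mutant libraries were lower and close to each other, and the value of -0.19 (SE 0.0625, edgeR adjusted p = 0.118) was not called. LHCB6, which encodes CP24, had -0.08 with overlapping groups, and LHCB4.2 had -0.24. The sum of LHCB4.1 and LHCB4.2 stood at 6903 and 7046 CPM in Col-0 against 5487 and 6262 CPM in the mutant, without overlap. At -0.25 (SE 0.0689, edgeR adjusted p = 0.0568) it was not called, and with all families of copies summed in 1 fit its adjusted p was 0.0437.

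LHCB4.3, a rare form of CP29, had the largest log2 fold change of any antenna gene, -0.52 (SE 0.263, edgeR adjusted p = 0.372), but rested on few counts. It stood at 5.06 and 9.68 CPM in Col-0 against 5.22 and 5.07 CPM in the mutant, so only wild type 2 was high. Without wild type 2 its value was 0.02. LHCB7, another rare member, stood at 11.5 and 10.9 CPM in Col-0 against 7.36 and 12.2 CPM in the mutant, with the wild-type libraries between the mutant ones.

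All 4 main LHCA genes, which encode the antenna of photosystem I, had both mutant libraries below both wild-type libraries, with log2 fold changes from -0.22 to -0.20, and none was called. LHCA4 (AT3G47470), the highest of them per length, stood at 8005 and 7942 CPM in Col-0 against 6495 and 7384 CPM in the mutant, with a log2 fold change of -0.20 (SE 0.0683, edgeR adjusted p = 0.132). LHCA5 and LHCA6 are scarce proteins that attach the chloroplast NADH dehydrogenase-like complex to photosystem I. LHCA5 stood at 94.3 and 86.3 CPM in Col-0 against 79.9 and 89.9 CPM in the mutant, with overlapping groups. LHCA6 stood at 43.7 and 43.3 CPM in Col-0 against 44.9 and 49.8 CPM in the mutant, the one gene whose mutant libraries were both higher, with a log2 fold change of 0.12 (SE 0.0965, edgeR adjusted p = 0.612).

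In photosystem II, 2 of 10 transcripts fell, and both encode proteins of the oxygen-evolving complex on the lumenal side, which shields the manganese cluster that splits water. PSBO1 (AT5G66570) stood at 5166 and 5406 CPM in Col-0 against 4252 and 4576 CPM in the mutant. The groups did not overlap, and the log2 fold change was -0.26 (SE 0.0656, edgeR adjusted p = 0.0342), the largest of this photosystem. PSBQ2 (AT4G05180) stood at 1956 and 2025 CPM in Col-0 against 1622 and 1725 CPM in the mutant, also without overlap, with -0.25 (SE 0.0668, edgeR adjusted p = 0.0452).

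Their sister copies had smaller values that were not called. PSBO2, the minor form of PSBO, had a log2 fold change of -0.07 with overlapping groups, and PSBQ1 had -0.10. PSBO1 made up 79.9% and 80.4% of PSBO transcripts per length in Col-0 against 78.4% and 77.5% in the mutant. Summed by family, PSBO had -0.22 (edgeR adjusted p = 0.0700) and PSBQ -0.20 (edgeR adjusted p = 0.128). PSBP1, the remaining protein of this complex, stood at 4289 and 4282 CPM in Col-0 against 3842 and 3876 CPM in the mutant. Both pairs were tight and did not overlap, with -0.15 (SE 0.0630, edgeR adjusted p = 0.256).

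The other photosystem II genes encode small membrane subunits and PSBS, the sensor of lumen pH that switches excess energy to heat. PSBR (AT1G79040) was the highest per length, at 2817 and 2754 CPM in Col-0 against 1989 and 2692 CPM in the mutant. Only mutant 1 was far below wild type there, and the log2 fold change was -0.25 (SE 0.0944, edgeR adjusted p = 0.188). PSBW and PSBX had -0.22 and -0.24. PSBS and PSBY had the smallest values, -0.01 and -0.03, and both turned positive, at 0.03 and 0.01, when counts were scaled by library totals alone. PSBS stood at 800 and 752 CPM in Col-0 against 755 and 787 CPM in the mutant, overlapping throughout.

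In photosystem I, 5 of 12 transcripts fell, and every one of its 12 values was below 0. PSAD and PSAE form the stromal ridge where ferredoxin docks. PSAE1 (AT4G28750) stood at 829 and 750 CPM in Col-0 against 541 and 677 CPM in the mutant, without overlap, and its log2 fold change of -0.37 (SE 0.0876, edgeR adjusted p = 0.0207) was the largest of this photosystem. Antisense genes with few counts beside it overlap 34.1% of its exon bases. PSAD1 (AT4G02770), the highest stromal subunit per length, stood at 2307 and 2317 CPM in Col-0 against 1792 and 2042 CPM in the mutant, without overlap, with -0.27 (SE 0.0711, edgeR adjusted p = 0.0423).

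The second copies of both had the same sign without being called: PSAD2 had -0.17 and PSAE2 -0.32 (edgeR adjusted p = 0.0572). Summed, PSAE stood at 1261 and 1181 CPM in Col-0 against 847 and 1064 CPM in the mutant, with -0.35 (SE 0.0856, edgeR adjusted p = 0.0260). The PSAD sum was not called, at -0.24 (edgeR adjusted p = 0.0650).

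PSAF and PSAN lie on the lumenal side, where plastocyanin delivers electrons, and both fell. PSAF (AT1G31330) stood at 3841 and 3935 CPM in Col-0 against 3255 and 3161 CPM in the mutant. Of the 11 genes called it was the only one for which mutant 3 was below mutant 1. The log2 fold change was -0.28 (SE 0.0639, edgeR adjusted p = 0.0193). PSAN (AT5G64040) stood at 1626 and 1646 CPM in Col-0 against 1364 and 1394 CPM in the mutant, with -0.25 (SE 0.0656, edgeR adjusted p = 0.0445). Neither gene's groups overlapped.

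Of the 6 membrane subunits 1 fell. PSAG (AT1G55670), which helps to hold the LHCA belt, stood at 497 and 462 CPM in Col-0 against 333 and 425 CPM in the mutant, without overlap, with -0.34 (SE 0.0903, edgeR adjusted p = 0.0452). An antisense gene listed at 0 overlaps 61.4% of its exon bases, and as for LHCB1.5, reads in the shared bases may be missing from both counts. PSAL (AT4G12800), part of the site where LHCII docks and the highest membrane subunit per length, stood at 3053 and 2992 CPM in Col-0 against 2249 and 2856 CPM in the mutant. Mutant 3 was just under wild type and mutant 1 far under it, and -0.24 (SE 0.0841, edgeR adjusted p = 0.138) was not called. PSAO had -0.30 (edgeR adjusted p = 0.0737), PSAK -0.20, PSAH1 -0.19 and PSAH2 -0.12. The PSAH sum had -0.15 (edgeR adjusted p = 0.368). Antisense genes overlap 53.3% and 24.8% of the exon bases of PSAH1 and PSAH2.

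Set side by side, the medians of the 3 groups lay near one another, and a difference between the groups was not tested. The median log2 fold change was -0.20 for the antenna, -0.18 for photosystem II and -0.26 for photosystem I, and the ranges of single genes overlapped widely. Per length, with LHCB1.5 entered at 0, the antenna made up 65.0% and 65.1% of the TPM of all 43 genes in Col-0 against 64.4% and 65.1% in the mutant. Photosystem II made up 17.6% and 17.7% in Col-0 against 18.5% and 17.9% in the mutant, and photosystem I made up 17.4% and 17.2% against 17.2% and 17.0%. The summed level of all 43 genes was 183137 and 183923 TPM in Col-0 against 151172 and 171379 TPM in the mutant, while the balance between antenna and photosystems shifted by less than 1 percentage point.

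**Figure D3:**
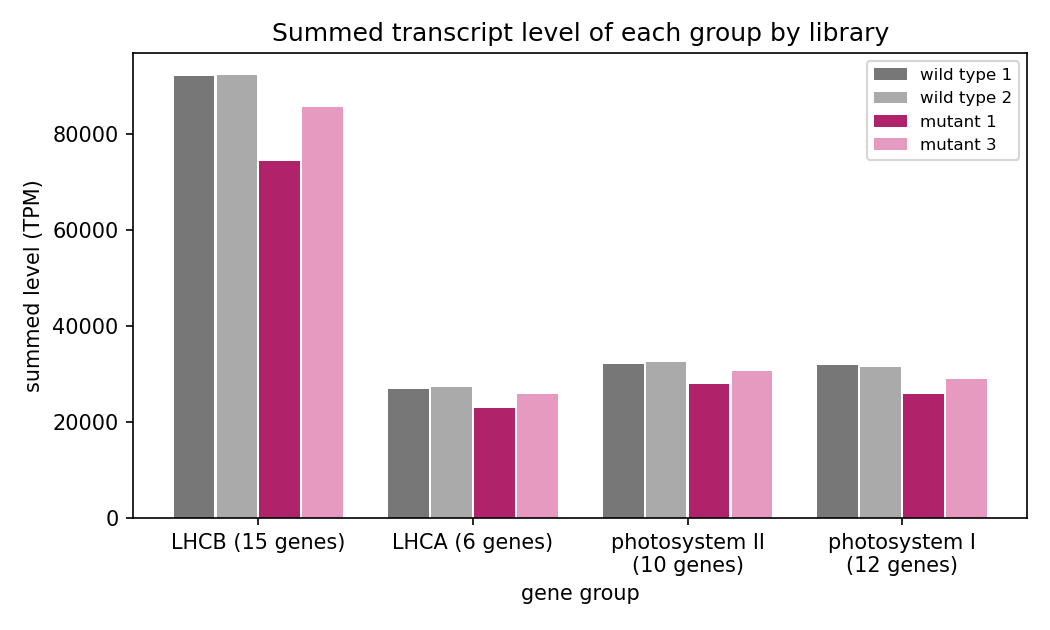
Summed level of each gene group in TPM, 1 bar per library, for 15 LHCB, 6 LHCA, 10 photosystem II and 12 photosystem I genes. In each group mutant 1 is lowest, mutant 3 is between it and wild type, and the wild-type bars are nearly level.

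The mutant libraries differed from each other more than the wild-type libraries did. The median distance between the libraries of a genotype was 0.03 on the log2 scale for wild type and 0.19 for the mutant over the 42 transcripts, and the mutant pair was the farther apart for 40 of them. Over all 1857 genes of at least 100 CPM these medians were 0.05 and 0.09, and the mutant pair was the farther apart for 1213. Mutant 1 was below mutant 3 for 39 of the 42, where 50.1% of all genes tested and 41.1% of those of at least 100 CPM had that order. Against the wild-type mean, the median was -0.31 in mutant 1 and -0.11 in mutant 3. Mutant 3 was below both wild-type libraries for 32 of the 42, the same 32 for which both mutant libraries were. Both mutant libraries lay below for 22.4% of all genes tested and 33.9% of those of at least 100 CPM. The 42 transcripts are therefore not independent readings of the genotype.

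**Figure D4:**
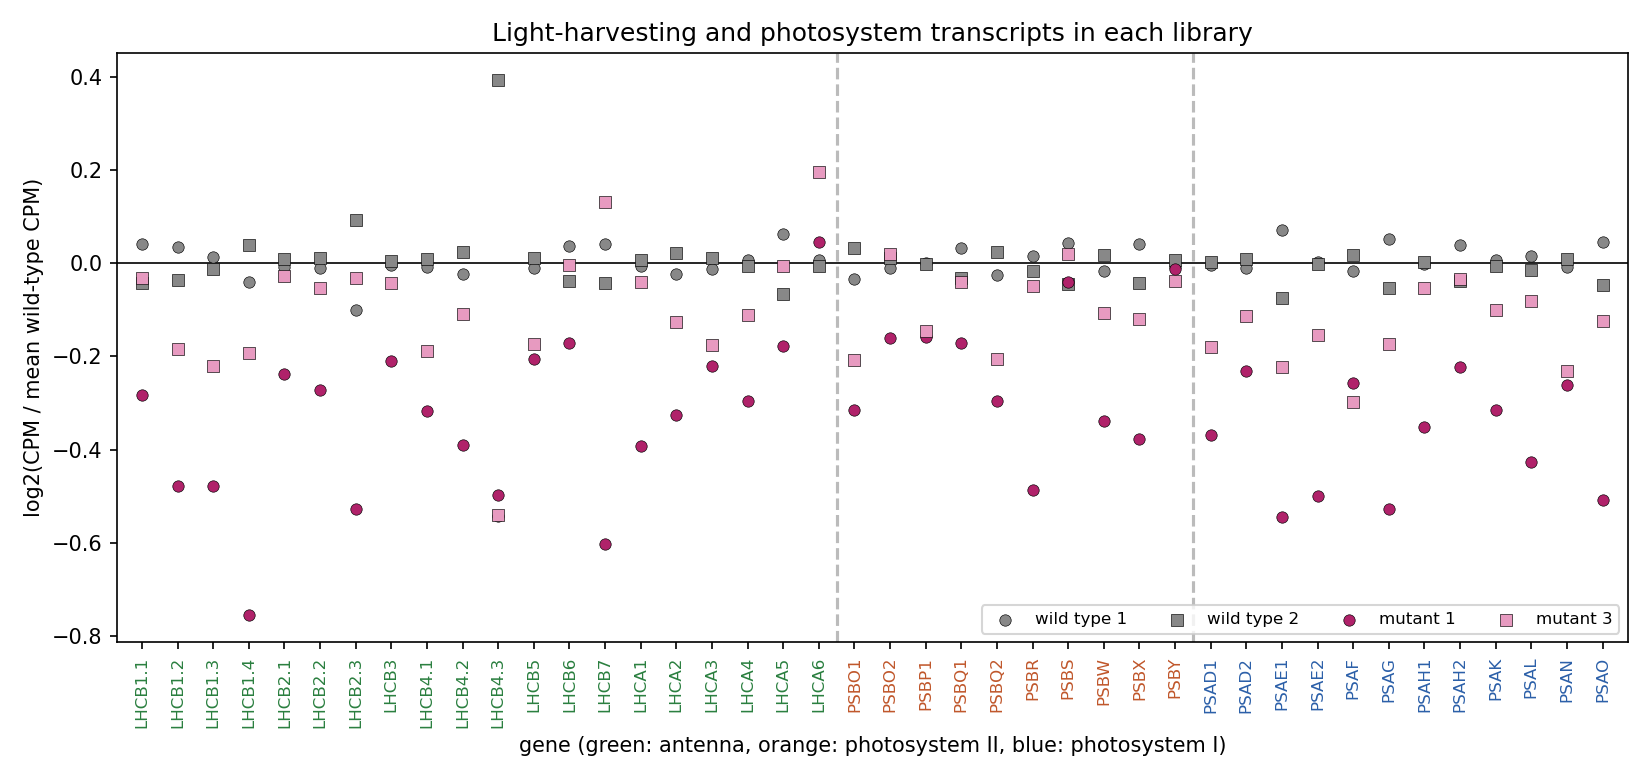
CPM of each tested transcript in each library relative to the mean of wild type, on a log2 scale, with circles for libraries numbered 1, grey squares for wild type 2 and pink squares for mutant 3. The wild-type points stay near 0 except for LHCB4.3, and mutant 1 lies lowest for most genes, down to LHCB1.4.

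**Figure D5:**
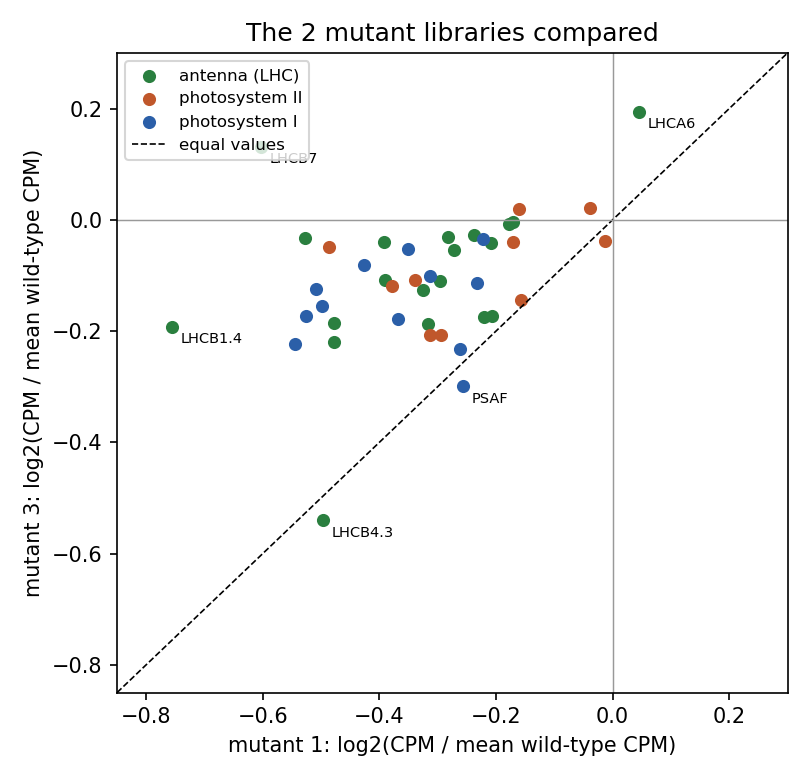
The same log2 ratios in mutant 1 (horizontal) and mutant 3 (vertical), 1 point per gene. Of 42 points 39 lie above the dashed line of equal values, which means that mutant 1 was lower, and PSAF and LHCB4.3 are 2 of the 3 below it.

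LHCB1 and several other members have no intron in the coding region, and MAC3B belongs to a splicing-related complex, so the values were set out by gene structure. Of the 43 genes 10 have an unbroken coding region (the LHCB1 copies, PSBX, PSBY, PSAD1, PSAD2 and PSAG). Of these, 9 were tested, 5 fell and the median log2 fold change was -0.27. Among the 5 were LHCB1.2, LHCB1.3 and LHCB1.4, close copies of one another between which reads may be split. Of the 33 genes with a coding region in several blocks, 6 fell and the median was -0.20. Over all genes tested, 1.33% fell. A difference between these classes was not tested.

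The deposited score of intron retention offered a second readout of the same genes. The table lists 42 introns in 20 of the 43 genes, and 39 of them were above 0 in at least 1 column. Many of the 42 were among the highest of all: 27 (64.3%) had a mean score over 300, against 871 of all 79373 introns listed (1.1%). The limit of 300 was not set in the plan. It lies just under the lowest of the 27 (301), so these shares are a description only. The score was not divided by the level of the gene as far as its columns show, and these are abundant transcripts. The score columns name the genotype but not the library. By limma on log2(score + 1), 0 of the 39 were called, as were 0 of all 41390 introns tested (0%), and 4 of the 39 and 739 of all had an unadjusted p under 0.05.

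The highest mean score belonged to an intron of LHCB5 (chr4:6408917-6409022), with 3367 and 3400 in Col-0 against 3484 and 3182 in the mutant columns, which overlapped. An intron of LHCB2.1 (chr2:1824101-1824185) scored 2574 and 2496 in Col-0 against 3962 and 3342 in the mutant. Both mutant columns were higher there, with a log2 difference of 0.52 (SE 0.158), an unadjusted p of 0.0116 and a limma adjusted p of 0.625 over all introns. The others with an unadjusted limma p under 0.05 differed in sign. The mutant was higher for an intron of PSBO1 (0.65) and another of LHCB5 (0.80), and lower for an intron of PSAF (-0.40). An intron of LHCB2.2 (chr2:1800088-1800183) scored 3356 and 2566 in Col-0 against 2665 and 3056 in the mutant, and one of PSAO (chr1:2641565-2641660) scored 3025 and 2605 against 2819 and 2842, both overlapping. The median log2 difference was 0.12 over the 39 and 0.18 over all introns tested. The authors' rMATS table of retained introns held 1 event in these genes out of 4690, in LHCA1, with a false discovery rate of 1.

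Regulators of antenna genes, among them transcription factors and photoreceptors, were read from a list of 19, of which 18 were tested. GUN4 was not tested, with 22 counts in all and 73.0% of its exon bases shared with an antisense gene. Of these 0 fell (0 also at an unadjusted p under 0.05 in edgeR, and 0 in the authors' deposited table) and 2 rose, CCA1 and LHY, the paired morning MYB factors of the circadian clock. CCA1, first described as a protein that binds a light-harvesting gene promoter, stood at 35.5 and 32.2 CPM in Col-0 against 62.2 and 65.1 CPM in the mutant. LHY stood at 17.0 and 15.9 CPM in Col-0 against 36.2 and 29.7 CPM in the mutant. Neither gene's groups overlapped, and the log2 fold changes were 0.91 (SE 0.0960, edgeR adjusted p = 5.5e-06) and 1.00 (SE 0.127, edgeR adjusted p = 6.8e-05). The hour of harvest is not given in the labels.

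The GOLDEN2-LIKE factors, which turn on antenna and chlorophyll synthesis genes, were not called. GLK1 stood at 87.2 and 87.9 CPM in Col-0 against 86.7 and 98.5 CPM in the mutant (log2 fold change 0.08), and GLK2 at 163 and 155 CPM against 143 and 163 CPM (-0.06), with overlapping groups for both. HY5, a light-response factor that binds G-boxes, stood at 7.79 and 8.22 CPM in Col-0 against 7.36 and 12 CPM in the mutant, where only mutant 3 was high (0.28, edgeR adjusted p = 0.601).

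Genes of neighbouring steps of photosynthesis were read from 4 further lists. For comparison, edgeR called 1.33% of all genes tested lower and 1.68% higher. At an unadjusted p under 0.05 it gave 7.17% lower and 7.54% higher. The authors' deposited table had 1.86% lower and 2.00% higher. Of 14 genes of electron transport and ATP synthase 1 fell and 0 rose, with a median log2 fold change of -0.07. At an unadjusted p under 0.05, 4 were lower and 1 higher, and the authors' deposited table had 2 lower and 0 higher. The one was FNR2, a ferredoxin-NADP reductase, at 413 and 403 CPM in Col-0 against 276 and 308 CPM in the mutant (-0.48, SE 0.0744, edgeR adjusted p = 0.000646). Of 8 genes of antenna insertion and state transitions 2 fell, with a median of -0.20: TAP38, the phosphatase that acts on LHCII, had -0.35 (edgeR adjusted p = 0.0353), and cpSRP54, a subunit of the particle that carries antenna proteins to the thylakoid, had -0.31 (edgeR adjusted p = 0.0291). At an unadjusted p under 0.05, 4 of the 8 were lower, and 3 were lower in the authors' deposited table.

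Of 10 assembly factors 2 fell, with a median of -0.20. They were HCF101, which supplies iron-sulfur clusters to photosystem I, at -0.35 (edgeR adjusted p = 0.0221), and PYG7, an assembly factor of the same photosystem, at -0.35 (edgeR adjusted p = 0.0399). At an unadjusted p under 0.05, 5 of the 10 were lower, and 2 were lower in the authors' deposited table. The insertion and assembly genes thus had calls in 2 of 8 and 2 of 10, beside 11 of the 42 antenna and photosystem transcripts. Of all genes tested 1.33% were called lower, and these shares were not compared by a test. Of 8 LHC-like stress proteins 0 were called in edgeR's test, and 0 of the 6 with an adjusted p in the authors' deposited table. In edgeR 2 were lower at an unadjusted p under 0.05, and the smallest p belonged to OHP2, a one-helix protein, at -0.20 (unadjusted p = 0.0169, adjusted p = 0.201).

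The promoters of the genes that carry the result were read from RefSeq's copy of the TAIR10 genome, from 250 bases before to 30 bases after the annotated start. They were searched on both strands for 5 motifs that do not contain one another. The G-box, CACGTG, is read by light-response factors such as HY5 and the PIF proteins. The I-box, GATAAG, is found in many light-regulated promoters. The GLK-type motif, CCAATC, is the core bound by GOLDEN2-LIKE factors. The binding site of CCA1 was taken as AANAATCT and the evening element of the clock as AAAATATCT. The windows of LHCB1.3 (chr1:10477635-10477914, plus strand), LHCB1.1 (chr1:10475940-10476219, minus strand), PSBO1 (chr5:26568322-26568601, plus strand), PSAE1 (chr4:14204032-14204311, minus strand) and PSAF (chr1:11216112-11216391, minus strand) are printed with matches in capitals. They show a called and an uncalled LHCB1 copy and the called genes with the lowest value or adjusted p of each photosystem.
LHCB1.3: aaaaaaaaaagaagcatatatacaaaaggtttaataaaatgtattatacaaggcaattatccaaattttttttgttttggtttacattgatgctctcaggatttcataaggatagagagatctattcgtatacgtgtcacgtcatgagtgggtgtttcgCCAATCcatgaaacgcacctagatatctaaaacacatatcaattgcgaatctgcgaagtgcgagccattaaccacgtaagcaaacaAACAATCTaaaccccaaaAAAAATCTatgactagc
LHCB1.1: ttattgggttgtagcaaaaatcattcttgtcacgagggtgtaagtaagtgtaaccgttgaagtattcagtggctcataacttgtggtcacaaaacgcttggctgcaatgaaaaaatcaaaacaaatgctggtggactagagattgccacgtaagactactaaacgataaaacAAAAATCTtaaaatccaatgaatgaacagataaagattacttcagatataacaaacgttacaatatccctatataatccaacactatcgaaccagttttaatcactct
PSBO1: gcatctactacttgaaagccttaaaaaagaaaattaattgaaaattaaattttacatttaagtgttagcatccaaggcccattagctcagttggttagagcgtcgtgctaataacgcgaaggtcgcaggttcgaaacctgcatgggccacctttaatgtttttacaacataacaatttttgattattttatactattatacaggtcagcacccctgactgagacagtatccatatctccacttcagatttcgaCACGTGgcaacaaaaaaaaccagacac
PSAE1: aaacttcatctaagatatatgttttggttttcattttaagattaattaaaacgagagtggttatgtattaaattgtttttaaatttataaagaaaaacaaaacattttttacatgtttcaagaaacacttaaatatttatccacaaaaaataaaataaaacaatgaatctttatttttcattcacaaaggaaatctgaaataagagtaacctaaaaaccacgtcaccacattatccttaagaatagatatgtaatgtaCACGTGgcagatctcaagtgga
PSAF: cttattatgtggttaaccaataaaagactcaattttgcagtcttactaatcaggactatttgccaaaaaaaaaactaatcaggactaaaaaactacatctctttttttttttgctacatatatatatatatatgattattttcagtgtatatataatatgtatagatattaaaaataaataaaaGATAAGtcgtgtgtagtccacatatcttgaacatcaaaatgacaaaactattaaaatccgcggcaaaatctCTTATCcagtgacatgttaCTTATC
Counted from the annotated start, LHCB1.3 held CCA1-type matches whose first bases lie at -5 and 14 and a GLK-type match at -91, and LHCB1.1 held 1 CCA1-type match at -78. PSBO1 and PSAE1 each held a G-box just after the annotated start, at 4 and 9. That start is the outermost annotated end of the gene, and whether transcription begins there was not tested. PSAF held 3 I-box matches, at -66, 6 and 25, the last 2 on the other strand (CTTATC).

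Over all 43 promoters, 13 (30.2%) held a G-box, where 6.66% of 32546 nuclear promoters of the same length did. An I-box was in 15 of 43 (34.9%, against 14.0%), and the GLK-type motif in 13 of 43 (30.2%, against 11.7%). The CCA1-type site was in 11 of 43 (25.6%, against 14.4%) and the evening element in 1 of 43 (2.33%, against 2.49%). By group, the GLK-type motif was in 11 of 21 antenna promoters (52.4%) and in 0 of 12 photosystem I promoters, the I-box in 8 of 12 photosystem I promoters (66.7%), and the G-box in 4 of 10 photosystem II promoters (40.0%). These matches describe letters in the window and were not compared with the changes in the mutant.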

How the data were processed

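The authors deposited whole-number counts of read pairs per gene, per the file headers from featureCounts 2.0.1 over exons of TAIR10 genes, with no strand option. The submitters' processing notes name the aligners STAR 2.7.9a and HISAT2 2.2.0 as well as DESeq2 1.30.1. Which of the aligners came before the counting is not given in the sources used here. An other kind of value, exon length, was deposited with the counts and used for TPM. The authors also deposited log2 fold changes and p-values from DESeq2, read as mutant minus wild type because MAC3B is at 2.72 there. A deposited intron table holds a coverage-like signal and log2 means, of unstated making. A deposited rMATS table holds p-values and an inclusion difference, a score, and names no genotype. Another 4 columns of log2 intron values and a sheet that repeats part of the table were not used.

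Counts were tested in R 4.3.3 with edgeR 4.0.16 (filterByExpr, TMM, glmQLFit and glmQLFTest, genotype as the only term, 4 libraries, Benjamini-Hochberg over 20483 genes at 0.05; common biological coefficient of variation 0.0971). CPM values are scaled by the TMM factors. Library totals were 23436163 and 24245300 for Col-0, 23936296 and 30105517 for the mutant, so 3 counts, the floor, equal 0.0996 to 0.128 CPM, for counting error only. Intron scores were tested with limma 3.58.1 (eBayes with trend, pseudocount 1). Both tests were tried on simulated data first. Alternatives used DESeq2 1.42.0, other scalings and filters, summed copies and each library left out. Sequences were read with Python 3.11.15 and Biopython 1.88 from RefSeq's copy of TAIR10, in which 43 of 43 genes have the same ends as in the count table. The members, gene lists and tests were chosen with earlier results of these data known. The limit of at least 100 CPM for background counts was added after seeing the data. Values in every library were given for each gene called, the highest gene per length in each subgroup, the largest change in each group, and the regulators CCA1, LHY, GLK1, GLK2 and HY5. A few more were added after their values were seen (LHCB1.1, LHCB7, LHCA6, PSBP1, PSBS and the summed copies). Exons of 17 of the 43 genes share bases with another gene, 7 of them over 20% of their bases. TPM used the full exon length of these genes, so counts and TPM may be too low where reads in shared bases were not counted.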

Additional observations from a re-analysis of the deposited data

How the results depend on the processing

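The sign of the group medians held in every setting tried. With 1 library left out in turn the antenna median ranged from -0.31 to -0.08, photosystem II from -0.23 to -0.08 and photosystem I from -0.36 to -0.14. Members called lower numbered 0 to 36 and members called higher 0 to 0 in those fits, all genes called 135 to 1848, and the LHCB1 sum ranged from -0.48 to -0.18, not called without either wild-type library. A genotype left with 1 library is assumed to vary like the other, so fits without a mutant library take their spread from the close wild-type pair. Of all genes 617 were called in the main analysis and 1090 with no filter beyond a count above 0. Members called lower numbered 11 in the main analysis, 25 with no such filter, 6 with at least 1 CPM in every library of a genotype, 5 with library totals alone, and 6 of 31 features with copies of one subunit summed (the LHCB1, LHCB4 and PSAE sums, of which LHCB4 was not called when summed alone, PSAF, PSAG and PSAN). They numbered 11 with RLE factors, 11 with TMM factors computed without the members and 12 with DESeq2. The causes were not tested. Library totals alone moved the median of all genes by 0.04. Signs turned for PSBS (0.027) and PSBY (0.011) with library totals alone. With 1 library left out, PSBS ranged from -0.054 to 0.035, LHCB4.3 from -0.91 to 0.023, LHCB7 from -0.60 to 0.13 and PSBO2 from -0.16 to 0.020. Of these values 1 was called, PSBO2 without mutant 3 (adjusted p = 0.0247). Introns of the 43 genes called numbered 0 in the main analysis, with a pseudocount of 0.1, and with introns above 0 in every column (where 4 of all 10788 were called), and 0 to 3 with 1 score column left out, which could not be tied to replicate numbers; the 3 came with 7356 calls over all introns. No paired analysis was possible because the genotypes share only 1 replicate number: titles number the wild-type libraries 1 and 2 and the count columns 2 and 3, against 1 and 3 in the mutant. Counts of abundant genes are limited by the spread between 2 libraries per genotype rather than by depth, and of LHCB4.3 and LHCB7 by depth as well.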
